A study of Bos taurus with 4 samples.

Results

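The spots described here came from plate HZ2, a small plate of DNA printed on each array beside a large library of mouse cDNA clones. Members were the spots whose own plate position began with HZ and whose clone title was filled in. There were 130 such spots on each array, of 37632 spots in all, and they held 65 titles in 2 wells each. Of these titles, 52 name genes (104 spots), 10 match plant control genes used on arrays (20 spots), and 3 are nucleic acid preparations (6 spots). The other 254 wells of the plate carried no title.

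The study exposed chromaffin cells of cattle, which make and release catecholamines in the adrenal medulla, to the secreted neuropeptide PACAP. Per the labels, the dose was 100 ng/ml and the exposure lasted 6 h at a temperature of 37 C. Each of 4 arrays held RNA of treated cells in the red channel (Cy5) and control RNA of the same repeat in the green channel (Cy3), and no array had the dyes exchanged, so that a dye preference of a spot and an effect of PACAP cannot be told apart. The labels give 4 biological repeats without saying that the cells came from separate animals, and p-values then measure only the spread between these arrays. The tissue entry of the labels reads brain while the cell type entry reads chromaffin cells.

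As background, the PACAP receptor couples to adenylyl cyclase and raises cyclic AMP, and in neurons and chromaffin cells the signal also reaches the MAP kinases. These pathways drive immediate early genes, such as those of the Fos, Jun and Egr families, within minutes to hours, and slower targets that include neuropeptide precursors. The gene titles of the plate follow that chain: AP-1 and other transcription factors, proteins induced by neuronal activity, neuropeptide precursors, kinases, G protein regulators and receptors. Ania clones were isolated as genes switched on in the striatum by neurotransmitter stimulation.

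The 2 wells of a title were adjacent on the plate but were printed by different pens, and the layout and titles were the same on all 4 arrays. The titles are short laboratory names, and an identifier stood beside 51 of them in the table of repeat 3 only. No probe sequences were used here, and no source used here gives the species of the plate's DNA.

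The gene titles were brighter spots than the library. Brightness is given as the signal net of local background divided by bkDev, the deposited spread of that background, so that a value of 2 lies 2 background SD above it. In Cy5, 103, 102, 103 and 103 of the 104 gene-titled spots of repeats 1 to 4 exceeded 2 background SD. In Cy3, 98, 92, 82 and 104 did so, or 94.2% (95% exact Clopper-Pearson interval 87.9 to 97.9), 88.5% (80.7 to 93.9), 78.8% (69.7 to 86.2) and 100% (96.5 to 100). These intervals cover counting error only. Library spots passed in 80.9, 53.0, 46.0 and 98.3% of cases in Cy3, so that the gene titles exceeded the library's Cy3 share on every array. In Cy5 the library passed in 97.6, 98.4, 97.8 and 91.9% of cases, against 99.0, 98.1, 99.0 and 99.0% of gene-titled spots. Those Cy5 shares were close on repeats 1 to 3, and the library's was the higher on repeat 2. The median gene-titled spot stood at 26.3, 25.0, 21.4 and 9.91 background SD in Cy5, against 12.8, 13.4, 10.1 and 5.43 for the library, and at 6.34, 3.61, 3.57 and 21.2 in Cy3, against 3.72, 2.11, 1.86 and 11.5.

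Repeat 4 stood apart in the balance of its channels: there Cy3 was the brighter channel over background, and on the other arrays Cy5 was. All 52 gene titles exceeded 2 background SD in Cy5 on all 4 arrays, and 41 did so in Cy3 on all 4. Enk was the brightest title in Cy5, at 197, 497, 515 and 134 background SD. The dimmest were Pkc-lamda, down to 2.70 in Cy5, and Ania-8, down to 1.28 in Cy3. Brightness depends on the DNA in each spot as well as on the RNA, and is no measure of one gene's level against another's.

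Most spots of the plant controls and preparations had no spot area. These titles are Cab, RCA, rbcL, LTP4, LTP6, XCp2, RCP1, NAC1, TIM and PRKase, and Human cot1DNA, Poly A and Salmon Sperm DNA. The scanner program found no spot area in 61 of 80 plant control spots and 18 of 24 preparation spots over the 4 arrays, against 5 of 416 gene-titled spots. None of the control spots reached 60 pixels, while 406 of the 416 gene-titled spots did. In each channel 24 of the 80 plant control spots and 6 of the 24 preparation spots exceeded 2 background SD. Of the 416 gene-titled spots, 411 did so in Cy5 and 376 in Cy3. The share of blank spots was 5.47 to 7.12% in Cy5 and 9.81 to 13.3% in Cy3. The brightest control value was in Cy3 of 1 LTP6 spot on repeat 1, at 43.5 background SD with a net signal of 4359, although no spot area was found there. The control rbcL gave an area in all 8 of its spots, with a median of 27 pixels and at most 8.23 background SD. All 8 exceeded 2 background SD in both channels. Salmon Sperm DNA and TIM reached at most 0.13 and 0.16 background SD in any of their 8 spots. NAC1 is also the name of a mammalian gene, but it stood among the plant titles and none of its 8 spots had an area.

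No gene title differed between PACAP and control RNA beyond the spread between arrays after adjustment. Ratios were log2(Cy5/Cy3) after a loess fit on the library spots of each array, averaged over the wells of a title, and are given as the mean ± SD over 4 arrays, with positive values higher under PACAP. With limma and Benjamini-Hochberg adjustment over 35161 features, made up of 35109 library clones and the 52 titles, 0 features passed an adjusted p of 0.05 (0.00% called) and the lowest adjusted p was 0.453. At an unadjusted limma p under 0.05, 2 titles were higher (3.92% of all features) and 8 were lower (6.47% of all features).

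The gene titles as a whole lay below the library. Their median mean ratio was -0.33, against -0.01 over the library clones. The mean was below 0 for 48 of 52 titles, where 51.5% of all features were. The ratio was lower on all 4 arrays for 21 titles (8.30% of all features) and higher on all 4 for 2 (9.58% of all features). By array, the median title stood at -0.31, -0.56, -0.66 and -0.01 in repeats 1 to 4, so the shift was seen in repeats 1 to 3 and was near 0 in repeat 4. Without repeat 4 it was -0.48.

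Library spots in the plate's first print row, 990 to 1013 an array over all print blocks, had medians of -0.004, -0.020, -0.033 and -0.055. No library value was taken for the plate's second print row, which held other titles. The part of print position in the shift was not tested. The shift depended in part on the scaling. With each array centred on its library median and no loess, the median title was at -0.24 against -0.03 for the library clones, and 34 titles had a mean below 0 (52.1% of all features) and 18 above. Then 6 titles were higher on all 4 arrays (12.4% of all features) and 7 were lower on all 4 (10.1%). Those centred values also went with brightness: the 26 brighter titles had a median of 0.12 and the 26 dimmer ones -0.54, while the loess values of the same titles were -0.33 and -0.37. The part of spot DNA, dye and brightness in these shifts was not tested.

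Among the neuropeptide precursors, Enk had the smallest p of the titles above 0. Enk, the precursor of the enkephalin opioid peptides stored with catecholamines in chromaffin granules, gave 0.95, 0.90, 0.76 and 0.75 in repeats 1 to 4, or 0.84 ± 0.10 (SD, n = 4), a 1.79-fold difference. All 4 arrays were higher and lay close together, and the limma p was 0.0065 before and 0.453 after adjustment over all features. In the authors' deposited series table, centred on each array, Enk was instead at -2.73, -0.81, -2.002 and 1.22, a mean of -1.08, with Cy3 of 39, 67, 63 and 5 of the 104 gene-titled spots at that table's floor. Its net signal in Cy5 was 5614, 11352, 4424 and 7692, and in Cy3 1270, 1279, 891 and 9916. The Cy3 signal of Enk was thus many times brighter in repeat 4 than in the other repeats, and the ratio before loess moved with it: centred on the library median it was 1.52, 2.62, 2.23 and 0.81.

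Both library clones titled preproenkephalin 2 gave ratios like those of Enk. The first had 0.61, 1.13, 0.98 and 0.92 (0.91 ± 0.22) and the other 0.81, 1.16, 1.08 and 0.38 (0.86 ± 0.35), each higher on all 4 arrays. The 3 features are different DNA preparations on the same arrays, so they share RNA and dyes and are no independent repeats.

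Sub-p, taken here as the precursor of substance P, gave 1.02, 0.00, 0.43 and 0.80, or 0.56 ± 0.45, higher on 3 arrays and level on repeat 2. Its wells differed by 1.38 on repeat 2 and 0.92 on repeat 3, each more than its mean ratio, and by 0.20 and 0.03 on repeats 1 and 4. On repeat 3 its Cy3 signal stood at 1.61 background SD. The library clone titled tachykinin 1, the gene of substance P, had 1.29, 1.99, 1.97 and 1.64 (1.72 ± 0.33), higher on every array, but it exceeded 2 background SD in Cy3 on 1 array only. Dyn, the precursor of the dynorphin opioid peptides, was at -0.46 ± 0.62, lower on repeats 1 to 3 and higher on repeat 4. Its library clone, titled prodynorphin, was at 0.76, 0.22, 0.27 and 0.23 (0.37 ± 0.26), higher on all 4 arrays, with Cy3 above 2 background SD on 1 array only. The library clones of all 3 precursors thus lay above 0 on every array, while the Dyn title did not, and none of the 3 passed adjustment (lowest adjusted p 0.453).

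The AP-1 group, whose Fos and Jun proteins pair to bind DNA, had 5 titles, and all 5 means were below 0. C-fos, a classic immediate early gene, gave -1.06, -0.81, -1.35 and -0.74, or -0.99 ± 0.28. It was lower on all 4 arrays and had the smallest p of the plate (limma p 0.0034, adjusted p 0.453). Its net signal in Cy5 was 2043, 1254, 601 and 985, and in Cy3 1995, 723, 689 and 3636. Under median centring it was -0.55, 0.27, -0.27 and -0.74, so that repeat 2 changed side and the mean was -0.32 ± 0.44. The library clone of the same gene, titled FBJ osteosarcoma oncogene, went the other way on 3 of 4 arrays, at 0.24, 0.61, 1.00 and -0.25.

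C-jun, a partner of Fos, was at -0.51 ± 0.18 and lower on all 4 arrays, but at 0.06 ± 0.39 under median centring. Its library clone lay at -0.03 ± 0.55. Fos B was at -0.48 ± 0.59, or -0.04 ± 0.30 under median centring, and its 3 library clones had means from -0.08 to 0.45. JunB and fra-2, which fall outside the rule for naming and were added with their values known, were at -0.13 ± 0.05 and -0.18 ± 0.45. The fra-2 title was higher on all 4 arrays under median centring, at 0.27 to 0.39.

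The other transcription factors had 6 titles with a median of -0.24. Forkhead, a title of the forkhead family with no member named, gave -0.62, -1.89, -2.48 and 0.25, or -1.18 ± 1.23. It was low on repeats 2 and 3 and above 0 on repeat 4. Egr3, a zinc finger factor of the Egr family, was at -0.61 ± 0.62, and its library clone at 0.27 ± 0.50. Zif268 (Egr1), Krox-20 (Egr2), Nur-77 (an orphan nuclear receptor) and Chop (a stress-induced factor) were beyond the rule for naming and were added with their values known. They lay at -0.27 ± 0.23, -0.21 ± 0.14, -0.12 ± 0.08 and 0.02 ± 0.25. Under median centring Zif268 and Nur-77 turned above 0, to 0.62 ± 0.56 and 0.47 ± 0.49. Zif268 was bright in both channels, at 68.0 to 218 background SD in Cy5, and its 3 library clones had means of -0.03, 0.36 and -0.04.

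The activity-induced proteins had 7 titles, of which 6 had a mean below 0. Narp, a secreted pentraxin that gathers glutamate receptors at synapses, was the exception. It gave 0.94, 0.45, 0.11 and 1.91, or 0.85 ± 0.78, higher on all 4 arrays, with repeat 4 highest and repeat 3 close to 0 (limma p 0.032, adjusted p 0.456). Without repeat 4 its mean was 0.50. One of its wells had no spot area on repeat 1. The library clone titled neuronal pentraxin 2, the gene of Narp, went the opposite way, at -0.71, -1.92, -1.83 and -0.44 (-1.22 ± 0.76), lower on all 4 arrays.

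TPA, taken as tissue plasminogen activator, was at -0.50 ± 0.58 and lower on all 4 arrays, while its library clone was at 1.03 ± 0.93 and higher on all 4, with Cy3 above 2 background SD on 2 of them. Arc, a postsynaptic protein, was at -0.33 ± 0.36 and its 2 library clones were at -0.63 and 0.48. The wells and the library clones of a gene thus gave opposite signs for Narp, TPA and one clone of Arc. The other 4 titles of the group, Homer1a, Cox2, Rheb and Mkp-1, had means from -0.31 to -0.27.

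The Ania clones were the lowest group. All 10 means were below 0, with a median of -0.78. Ania-11 gave -1.30, -2.63, -2.13 and -0.04 (-1.53 ± 1.13), Ania-10 gave -0.64, -2.16, -2.41 and -0.17 (-1.34 ± 1.11), and Ania-2 was at -1.12 ± 1.15. Ania-12, Ania-9 and Ania-5 lay at -0.89 ± 1.21, -0.86 ± 0.97 and -0.70 ± 0.79. The group moved with the array: its median was -0.48, -1.21, -1.03 and 0.33 in repeats 1 to 4. It was thus above 0 on the array with the brighter Cy3 channel.

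The Ania clones were also dim spots. Outside Ania-6, they stood at 3.09 to 16.2 background SD in Cy5 and at 1.28 to 13.6 in Cy3. Ania-11 had a net Cy5 signal of 383, 124, 74.4 and 190 and a net Cy3 signal of 621, 555, 324 and 423. Ania-6, the bright one, reached 126 background SD in Cy5 and lay at -0.19 ± 0.36. Ania-8, Ania-3 and Ania4 were dim as well but lay at -0.24 ± 0.79, -0.13 ± 0.46 and -0.08 ± 0.62. The part of low signal in the group's ratios was not tested.

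The kinases and their partners had 11 titles, all with a mean below 0 and a median of -0.49. Pkc-zeta, an atypical protein kinase C, gave -0.42, -1.50, -1.87 and 0.01 (-0.95 ± 0.89), and its 3 library clones had means from -0.01 to 0.15. MEk1, the kinase that activates the ERK MAP kinases, gave -0.53, -0.56, -0.43 and -0.56 (-0.52 ± 0.06). Its 4 values lay closer together than those of Enk, but centred on the library median they were 0.06, 0.62, 0.49 and -0.58, with a mean of 0.15.

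The ERK kinases themselves were at -0.36 ± 0.40 (Erk-1) and -0.38 ± 0.55 (Map-erk2), and these means were also above 0 under median centring, at 0.19 and 0.14. Pkc-delta was at -0.61 ± 0.58, Pkc-epsilon at -0.43 ± 0.38, Ck1-delta, a casein kinase, at -0.49 ± 0.50, and Map-SAPK, a stress-activated kinase, at -0.50 ± 0.66. Pkc-zip, a protein that binds the zeta kinase, was added with its values known. It turned most with the scaling, from -0.24 ± 0.59 to 0.68 ± 0.23 and higher on all 4 arrays under median centring. Of the 11 kinase titles, 4 were thus above 0 under median centring: MEk1, Erk-1, Map-erk2 and Pkc-zip.

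The G protein and cyclase titles numbered 5, all with a mean below 0. N-CHN, taken as n-chimaerin, which switches off the GTPase Rac, gave -0.89, -1.31, -0.65 and -0.10 (-0.74 ± 0.50), lower on all 4 arrays (limma p 0.027, adjusted p 0.453). Under median centring it was -0.27 ± 0.27 and repeat 3 lay at 0.03. AC-IX, an adenylyl cyclase, the kind of enzyme that makes cyclic AMP, was at -0.62 ± 0.68, and its 2 library clones were at 0.12 and -0.12. On repeats 3 and 4 the AC-IX title rested on 1 well. Ras GRP, which activates Ras, was at -0.33 ± 0.38. Of the receptor and growth cone titles, the dopamine receptor D1 was at -0.55 ± 0.60, and D2, TRKB and Gap43 had means from -0.31 to -0.02. Mesis, a title with no role given here, was at -0.27 ± 0.14.

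Set against the plate's own median on each array, few titles stood on one side throughout. Enk was above it by 1.22 ± 0.32, Narp by 1.24 ± 0.50 and Sub-p by 0.95 ± 0.33, each on all 4 arrays, and so was TRKB, the receptor of BDNF, by 0.37 ± 0.30. C-fos (-0.61 ± 0.24), Ania-11 (-1.14 ± 0.86) and Ania-10 (-0.96 ± 0.83) were below it on all 4. The other 45 titles crossed the plate median on at least 1 array. By construction, as many titles lay above this median as below it on each array. Unrelated arrays would therefore also leave some titles on the same side throughout. These counts describe the plate and were not tested.

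Library clones gave a second reading of 33 titles, through 50 clones of the same gene. Of these clones, 21 had the sign of the title and 29 the opposite sign. A mean below 0 was found for 20 of the 50 clones, where 51.5% of all features had one. Of the 33 titles, all but Enk, Narp, Sub-p and Chop had a mean below 0. In the loess values, the lower ratios of these titles were thus not shared by most mouse clones named for the same genes. For 3 titles, Enk, Sub-p and fra-2, every clone had the sign of the title's mean on all 4 arrays. For 4 titles, Narp, TPA, Dyn and Map-erk2, the clone had the opposite sign on all 4. These signs are those of the loess values. Under median centring the fra-2 title was at 0.35 and its clone at -0.26, and Map-erk2 at 0.14 and its clone at 1.36. The means of Enk and Sub-p then still shared the sign of their clones, and those of Narp, TPA and Dyn did not. The signs of all 50 clones were not counted under median centring. Of all features, 9.58% were higher on all 4 arrays and 8.30% were lower on all 4. Whether the counts of titles differ from what these shares would give was not tested. None of the 50 clones passed adjustment (lowest adjusted p over all features 0.453). A clone title and a plate title can name different stretches of a gene, and whether they capture the same transcript was not tested.

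The wells of a title gave the technical error. Of 208 pairs, 203 had both wells measured, with a median gap of 0.27 on the log2 scale and a pooled SD between wells of 0.40. The SD over arrays had a median of 0.51 over the titles and 0.55 over the library clones. Enk, with gaps of 0.26, 0.25, 0.20 and 0.10, had a ratio larger than the gap between its wells on every array. So did MEk1, with gaps of 0.32, 0.24, 0.20 and 0.01. C-fos did too, with gaps of 0.04, 0.34, 0.08 and 0.73, the last only just below its ratio in size. Across the 52 titles, values of repeats 1 and 2, 1 and 3, and 2 and 3 had Pearson's r of 0.47, 0.58 and 0.46, against 0.23, 0.30 and 0.38 over the library clones, while repeat 4 had 0.40, -0.02 and 0.25 with repeats 1, 2 and 3. These values are across titles that share arrays, dyes and plate.

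For reference, 66 library clones of 22 common reference genes had a median ratio of 0.03, which became 0.62 under median centring. The 4 clones of chromaffin cell markers (Chga, Chgb, Scg2 and Th) exceeded 2 background SD in Cy3 on at least 3 arrays, with a median ratio of 0.40 and 1 of 4 below 0. The 4 adrenal cortex clones were all below 0 with a median of -0.39, and 3 of the 4 passed that Cy3 level on at least 3 arrays. Clones of fibroblast, endothelium, leukocyte, erythrocyte and Schwann or sustentacular markers had medians of -0.09, 0.27, 0.19, -0.04 and 0.03. Under median centring the chromaffin and adrenal cortex medians were 1.22 and -0.58, and those of the 5 other lists were 0.30, 0.19, 0.24, -0.22 and -0.22, so that the fibroblast and Schwann or sustentacular medians changed sign. The chromaffin list was planned with Penk, Dbh, Pnmt, Slc18a1 and Npy as well, which these values leave out. The 2 library clones titled preproenkephalin 2 were at 0.91 and 0.86. The reference, adrenal cortex, endothelium and erythrocyte lists also covered fewer genes than planned, at 22, 3, 2 and 2. None of the listed clones passed adjustment, and the part of other cell types in the titles' ratios was not tested.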

How the data were processed

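Each array's scanner table holds, per the file headers, linear intensity of both channels with its local background, spot area, a spot quality fraction and a calibrated ratio whose factor M is the authors'. The deposited intensity is already net of background: total intensity over mean plus background gave 115 to 129 pixels a spot, near the median spot area of 110 to 116. The authors' series table holds log2 ratios with column medians of 4.67, 5.51, 4.25 and -0.38, so it is not centred. Its rows for the plate were joined by consecutive identifiers in well order, and 100 of 104 gene-titled spots matched, within 0.1 on all 4 arrays, log2 of each channel with the background taken off again, floored at 1, less log2 M. Aligner and build do not apply, and no source used here names the image program.

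Spots without area were left out, signals were floored at 1, and limma 3.58.1 (R 4.3.3) applied global loess with weight 0 for spots other than library clones. Features needed more than 2 background SD in either channel on at least 3 of 4 arrays, and all 52 titles passed. The mean over 4 arrays was tested with lmFit and eBayes (intercept only, 2-sided, Benjamini-Hochberg adjustment over all features). The fit was also run on simulated data with independent noise on each array. The real arrays shared their dye assignment, and repeats 1 to 3 were correlated, so nothing about them is concluded from it. Tables were made with Python 3.11.15. Members and lists were chosen with earlier results of these data known. Named titles are the 30 of smallest limma p, others by count or as stated. Roles were assigned by hand from the titles and replace the broader classes planned. Alternatives covered scaling, floor, offset, filters, spot size, wells, left-out repeats and the series table. The number of arrays limits the precision.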

Additional observations from a re-analysis of the deposited data

Results flagged for a closer look

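In repeat 3, Ania-5 stood at -1.87 while the other repeats lay between -0.37 and -0.17, and Pkc-lamda, an atypical protein kinase C, stood at -1.005 while the others lay between 0.08 and 0.22. Each gap to the nearest other array exceeded Dixon's 95% critical value for 4 samples. In Cy5, 98.1% of the gene-titled spots of repeat 2 exceeded 2 background SD, where 99.0% did on each of the other 3 arrays, a difference of 1 spot. Because those 3 arrays were tied, any difference in this share exceeds Dixon's value. Otherwise chance gives such a gap in about 1 in 20 groups, and 54 groups of 4 were examined, so some gaps arise by chance.

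The 254 wells of plate HZ2 without a title gave signal above 2 background SD more often than blank spots. In Cy5 the share was 12.2, 19.7, 14.6 and 24.02% in repeats 1 to 4, against 5.47, 6.12, 7.12 and 5.99% of blank spots. In Cy3 it was 20.1, 23.6, 26.8 and 39.4%, against 11.98, 13.3, 9.81 and 12.5%. No well passed in Cy5 on all 4 arrays, 8 passed on 3 and 127 passed on none. Only 4 of the 1016 spots reached 60 pixels. No source used here says what these wells hold.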

How the results depend on the processing

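Under 19 alternatives 0 of the 52 titles passed adjustment where they were fitted. With the main fit included, AC-IX, Homer1a, Ania-8 and Pkc-lamda were each fitted under 19 of 20 settings. Over all features 0 passed except under the deposited series table, where 834 did and the smallest adjusted p of a title was 0.11. The median over titles stayed below that of the library, at -0.48 to -0.29 with 1 repeat left out. Other scalings moved the library median too: the deposited calibrated ratio gave -0.52 for titles against -0.31 for library clones (42 titles below 0), and the series table, centred per array, -0.55 against -0.30 (36 below 0). Median centring turned 14 titles above 0 and 0 below it: MEk1 (0.15), C-jun (0.059), Erk-1 (0.19) and Map-erk2 (0.14) of the 30 named by the rule, and Zif268, Pkc-zip, Ania-6, fra-2, Nur-77, Mesis, Rheb, D2, Gap43 and TRKB (0.03 to 0.68) of the others. Of the 30, the series table turned Enk (-1.08), Narp (-0.62), Citron (0.27), TPA (0.055), Fos B (0.66), Map-SAPK (0.37), Dyn (1.31), Erk-1 (0.37), Map-erk2 (1.01), Arc (0.26) and Ras GRP (0.54). By its construction Cy3 there sits at the floor for 39, 67, 63 and 5 of the 104 gene-titled spots in repeats 1 to 4. Outside the series table, Enk stayed between 0.80 and 1.79, Narp between 0.50 and 1.27 and C-fos between -1.11 and -0.32. At 3 background SD the mean share of gene-titled spots passing was 97.4% in Cy5 and 78.6% in Cy3, against 98.8 and 90.4% at 2. Among spots of at least 60 pixels it was 100.0% in Cy5. Each well alone, an alternative chosen after seeing the data, gave medians of -0.41 and -0.30. The fit was already paired, because each ratio sets the PACAP RNA against the control RNA of the same repeat on 1 array. No further pairing was possible, as the 4 arrays form 1 group. Brightness from a median signal was not run, since none was used here, and with 2 wells a title's median and mean are the same. AC-IX was not fitted from its odd well alone, which had a spot area on repeats 1 and 2 only.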
